A study of Mus musculus with 57 samples.

Results

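The genes described here are 32 members of the endoplasmic reticulum (ER) stress and integrated stress responses, listed by symbol and all present among 12887 gene rows of the deposited table. They comprised 15 ER folding genes, 4 genes of ER-associated degradation, 5 sensors and transcription factors and 8 targets of the transcription factor Atf4. They were measured by full-length RNA-seq in 57 single cells sorted as RM1 cells from the bone of C57BL/6 mice. RM1 (RM1536) is a mouse prostate cancer line, here carrying the fluorescent protein eCFP and the luciferase Luc2, and its cells took up the membrane dye PKH26 before intracardiac injection. The dye is diluted at each division. Dormant cells, 28 from 6 mice, had kept it, and proliferating cells, 29 from 6 mice here, had lost it. In both groups the host strain, the line, the transgenes, the stain and the site were the same, and the mice were harvested on days 13 to 26. Mice 360, 369, 452 and 1185 gave cells of both states, mice 244 and 1184 only dormant cells, and mice 268 and 288 only proliferating cells.

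In the ER, chaperones and disulfide isomerases fold secreted and membrane proteins, and misfolded chains are passed back to the cytosol for degradation. When misfolded proteins build up, the sensors Eif2ak3 (PERK), Ern1 (IRE1) and Atf6 start the unfolded protein response: Atf6 and the spliced form of Xbp1 induce chaperone and degradation genes, and PERK phosphorylates the translation factor eIF2 alpha. The same phosphorylation follows amino acid shortage, haem shortage and viral RNA through other kinases, which together form the integrated stress response, and it raises translation of Atf4. Atf4 in turn induces genes of amino acid supply, redox balance and cell death. A rise of folding genes and a rise of Atf4 targets can thus occur together or apart, and the members are given below in these groups. Gene counts cannot show the splicing of Xbp1, the phosphorylation of eIF2 alpha or the translation of Atf4.

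Each cell held 945351 to 5306777 reads, as worked back from the normalised values, and 2399 to 10509 rows above 0. Among dormant cells, 6 from mice 244, 360, 369 and 1184 had eCFP under 100 normalised reads (0 to 87.6), beside 349 to 5256 in the other 22 dormant cells and 327 to 3230 in proliferating cells. They are called low-label cells here, and the 22 others labelled dormant cells. Krt8, an epithelial keratin, was 560 to 15246 normalised reads in labelled dormant cells, 0 to 9.4 in low-label cells and 87.8 to 24783 in proliferating cells. Lyz2, which encodes lysozyme in myeloid cells, was 0 to 95205 in labelled dormant cells, 52146 to 188632 in low-label cells and 0 to 1251 in proliferating cells. Of 18 pan-leukocyte genes, 1 to 18 were above 0 in labelled dormant cells, 10 to 18 in low-label cells and 1 to 16 in proliferating cells. Their summed levels were 935 to 19927, 45419 to 132077 and 764 to 10059 normalised reads in those 3 sets. Ptprc, the pan-leukocyte phosphatase CD45, was detected in 4 of 22 labelled dormant, 5 of 6 low-label and 3 of 29 proliferating cells. Mki67, a marker of cycling cells, was above 0 in 12 of 22 labelled dormant, 2 of 6 low-label and 22 of 29 proliferating cells. Of 5 genes of cycling cells, medians of 4, 2.5 and 5 were above 0 in those 3 sets. All 5 were above 0 in each of the 4 labelled dormant cells of mouse 369. The states are thus named by dye and not by these genes. Whether the low-label cells are RM1 cells was not tested. The fits over all mice and within mice were run with and without them, and the differences printed for a gene include them unless labelled cells are named. Mzb1, a folding cofactor of plasma cells, had no reads in any of 28 dormant cells (95% exact Clopper-Pearson upper limit 12.3% of cells) and some in 2 of 29 proliferating cells.

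The promoter windows of the groups held different response elements. Of 32 members, 29 had a 300-base RefSeq promoter window (GRCm38.p6, 250 bases before to 50 after the start), and all 29 were searched on both strands for the ER stress element, CCAAT and CCACG spaced by 9 bases, which binds NF-Y and Atf6. It was found in 7 of 13 folding windows (Hspa5, Hsp90b1, Calr, Canx, Pdia6, Creld2 and Dnajc3), in 1 of 4 degradation windows (Syvn1) and in 0 of 8 Atf4 target windows, and 0.119% of all 32851 windows held it. The shorter ER stress element II, ATTGG and CCACG spaced by 1 base, was found for Dnajb11 and Herpud1, and in 0.0365% of all windows. It shares CCACG with the longer element. The C/EBP-ATF response element bound by Atf4, searched as TGATGNAA, was found in 5 of 8 Atf4 target windows (Trib3, Chac1, Asns, Slc7a11 and Nupr1), in 1 of 4 degradation windows (Herpud1) and in 0 of 13 folding windows, against 3.97% of all windows. Windows around matches in 3 folding genes whose levels moved together over cells are shown with the bases of the ER stress element in capitals. They lie at chr2:34771995-34772073 on the plus strand, chr10:86705608-86705686 on the minus strand and chr12:17266461-17266539 on the plus strand, each given 5′ to 3′ on the gene's strand.
Hspa5: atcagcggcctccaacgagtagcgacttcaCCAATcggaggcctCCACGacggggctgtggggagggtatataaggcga
Hsp90b1: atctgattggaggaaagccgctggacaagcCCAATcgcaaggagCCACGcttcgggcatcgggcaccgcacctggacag
Pdia6: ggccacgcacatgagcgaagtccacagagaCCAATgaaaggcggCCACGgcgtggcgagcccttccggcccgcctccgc
The 3 Atf4 target windows below show in capitals the bases of the C/EBP-ATF element, which reads forward in Asns, in reverse in Chac1 and once each way in Slc7a11. They lie at chr6:7693210-7693262 (minus strand), chr2:119351019-119351086 (plus strand) and chr3:50443623-50443709 (minus strand).
Asns: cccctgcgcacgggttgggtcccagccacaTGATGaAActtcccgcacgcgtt
Chac1: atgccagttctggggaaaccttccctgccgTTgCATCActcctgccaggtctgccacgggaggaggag
Slc7a11: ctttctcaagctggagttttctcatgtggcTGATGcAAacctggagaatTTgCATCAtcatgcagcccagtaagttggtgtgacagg
A match of letters is a description of the window and not evidence of binding in these cells. The groups were listed beforehand by the known roles of their genes, so the split of elements between them does not test the grouping.

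**Figure D1:**
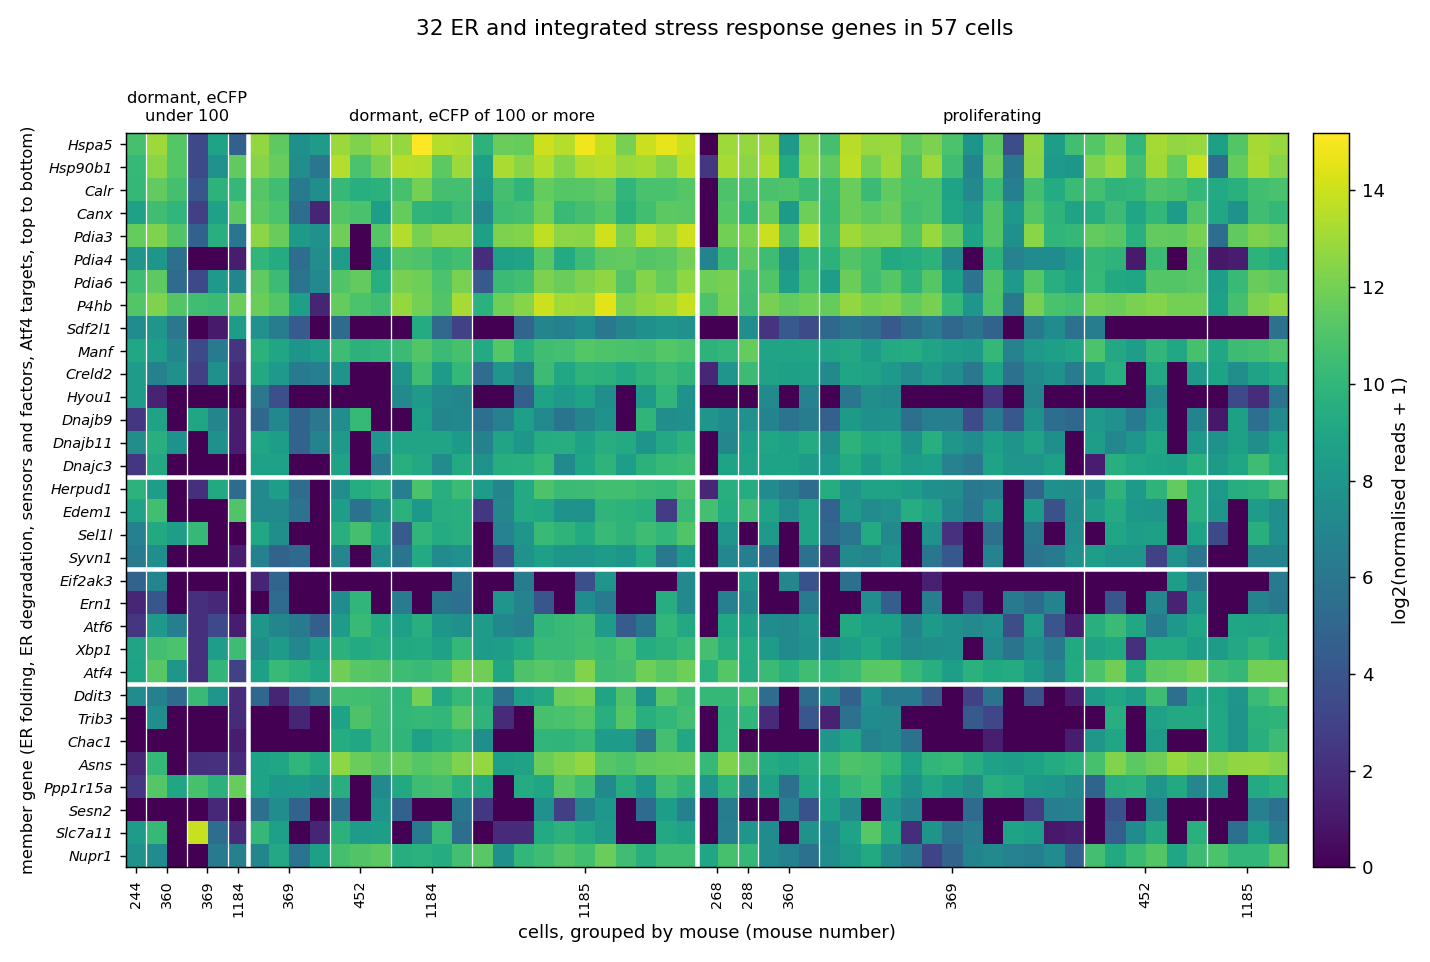
Each column is a cell, grouped by eCFP level, state and mouse, and each row a member gene. The colour is log2(normalised reads + 1). Hspa5 in the top row was above 0 in all 28 dormant and 28 of 29 proliferating cells, and among the Atf4 targets at the bottom Chac1 was at 0 in all 4 labelled dormant cells of mouse 369 and above 0 in all 4 of mouse 1184.

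No member differed between the states past the threshold. For every mouse, log2(normalised reads + 1) was averaged over its cells of a state, and the 6 dormant and 6 proliferating means were compared with limma, adjusted by Benjamini-Hochberg over 11843 genes above 0 in at least 6 cells. Of these genes 0% passed an adjusted p of 0.05, and so did 0 of 32 members (smallest adjusted p of a member 0.443, of any gene 0.437). With no adjustment, at p under 0.05, 3.28% of all genes were higher in dormant cells and 6.22% were lower, beside 1 member higher (Sel1l) and 2 lower (Dnajc3 and Asns). For all 32 members the dormant and proliferating mouse means overlapped. Overlap was not counted over all genes, so it cannot be read as a trait of the members. The difference, dormant minus proliferating, was above 0 for 13 of 32 members and for 36.9% of all genes, with a median of -0.13 over the members and -0.35 over all genes. On whole reads added up within each mouse and state, edgeR called 0.152% of genes (18) and DESeq2 2.55% (302), and neither called a member. The libraries were made in batches of a single state each, per the labels' protocols, and batch therefore cannot be told apart from state in any of these comparisons.

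Among the folding genes the main chaperones were abundant in both states. Hspa5 (BiP), the ER Hsp70 that also holds the sensors inactive, ranged from 197 to 37290 normalised reads with a median of 7573 in labelled dormant cells and from 0 to 12261 with a median of 4659 in proliferating cells. In low-label cells it ranged from 9.40 to 7908 with a median of 1107, and all 3 sets overlapped. The labelled dormant cell with 37290 had 12 of 18 pan-leukocyte genes above 0. The mean of Hspa5 over mice was 11.54 ± 1.59 in dormant and 10.77 ± 2.23 in proliferating cells on the log2(normalised reads + 1) scale (SD, n = 6 mice each). The difference was 0.77 (SE 0.84, limma adjusted p = 0.82). Hsp90b1 (GRP94), the ER Hsp90, had medians of 6678 in labelled dormant, 1750 in low-label and 4134 in proliferating cells, and a difference of 0.29 (SE 0.77). P4hb, a disulfide isomerase that is also a subunit of the collagen prolyl hydroxylase, had medians of 4292 in labelled dormant, 2235 in low-label and 3631 in proliferating cells and a difference of -0.01 (SE 0.53). Set per kilobase of exon, the highest medians in labelled dormant cells were those of Hspa5 (1791 normalised reads per kb), Pdia3 (1722), Hsp90b1 (1656) and P4hb (1500), and the same 4 genes were highest in proliferating cells, led by P4hb (1269).

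The lectin chaperones and other isomerases also overlapped between the states. Calr and Canx, which fold glycoproteins, had medians of 1688 (Calr) and 1591 (Canx) in labelled dormant cells, and of 1397 (Calr) and 1095 (Canx) in proliferating cells. Pdia3, the isomerase that works with them, had medians of 5404 in labelled dormant and 2898 in proliferating cells, and Pdia6 had 2937 in labelled dormant and 1554 in proliferating cells. Pdia4, another isomerase, had medians of 1128 in labelled dormant, 24.6 (0 to 263) in low-label and 682 in proliferating cells. Their differences over mice lay between -0.97 (Pdia4, SE 1.01) and 0.57 (Calr, SE 0.78). With labelled cells the differences of Pdia4 and Pdia6 were 0.19 (SE 1.11) and 0.05 (SE 0.59). None of these genes separated the states. Sdf2l1, an ER resident protein that binds misfolded chains with Hspa5, and Hyou1, the nucleotide exchange factor of Hspa5, had the largest positive differences of the group, 1.97 (SE 1.36) and 1.90 (SE 1.36). Hyou1 was above 0 in 14 of 22 labelled dormant, 2 of 6 low-label and 11 of 29 proliferating cells. Manf, a secreted protein retained by Hspa5, and Creld2, an ER protein with isomerase activity, had differences of -0.87 (SE 0.68) and -0.72 (SE 1.12). With labelled cells these were 0.17 (SE 0.63) for Manf and -0.56 (SE 1.31) for Creld2.

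Of the J-domain co-chaperones of Hspa5, Dnajb9 (ERdj4) and Dnajb11 (ERdj3) had differences of -1.49 (SE 1.04) and -0.02 (SE 1.01). Dnajc3 (P58IPK, chr14:118937976-118981697 on GRCm38), which also inhibits eIF2 alpha kinases, had mouse means of 2.40 to 9.24 with a median of 4.81 in dormant cells, and of 4.41 to 9.25 with a median of 8.23 in proliferating cells. The ranges overlapped, and the difference was -2.53 (SE 1.20, limma unadjusted p = 0.045, adjusted p = 0.51). Reads were present in 19 of 22 labelled dormant, 2 of 6 low-label and 27 of 29 proliferating cells, and with only labelled cells the difference was -0.87 (SE 1.19). Dnajc3 was lower in dormant cells in 4 of 4 mice with both states, with differences of -0.02 in mouse 1185 and -4.64 in mouse 369 as the extremes.

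Among the degradation genes Sel1l had the largest difference of all members. Sel1l (chr12:91806043-91849157), the scaffold of the ubiquitin ligase of ER-associated degradation, had mouse means of 4.46 to 9.78 with a median of 7.71 in dormant cells, and of 0 to 5.82 with a median of 4.75 in proliferating cells. The difference was 3.37 (SE 1.20, limma unadjusted p = 0.00989, adjusted p = 0.443), and it was above 0 in all 4 mice with both states, from 0.11 in mouse 369 to 3.96 in mouse 452. With only labelled cells it was -0.21 in mouse 369, 3.96 in mouse 452 and 3.56 in mouse 1185, and mouse 360 had no labelled dormant cell. In cells, Sel1l was 0 to 2121 normalised reads with a median of 687 in labelled dormant cells and 0 to 761 with a median of 60.1 in proliferating cells. It was at 0 in 3 of 22 labelled dormant and 10 of 29 proliferating cells. Syvn1 (HRD1), the ligase that Sel1l holds, had a difference of 0.39 (SE 1.15). Herpud1, which links the ligase to the retrotranslocation machinery, had medians of 881 in labelled dormant and 286 in proliferating cells, and a difference over mice of -0.06 (SE 1.06) with all cells and 0.50 (SE 1.07) with labelled cells. Edem1, a mannosidase-like lectin that hands over glycoproteins, had a difference of -1.11 (SE 1.07).

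The sensors Eif2ak3 and Ern1 were detected in part of the cells. Eif2ak3 was above 0 in 7 of 22 labelled dormant, 2 of 6 low-label and 8 of 29 proliferating cells, and Ern1 in 13 of 22 labelled dormant, 4 of 6 low-label and 16 of 29 proliferating cells. Atf6 had medians of 332 in labelled dormant and 271 in proliferating cells. The differences were -0.55 (SE 1.24) for Eif2ak3, -0.57 (SE 1.17) for Ern1 and -0.45 (SE 1.14) for Atf6. With labelled cells they were -1.35 (SE 1.27) for Eif2ak3, 0.27 (SE 1.28) for Ern1 and 1.09 (SE 1.00) for Atf6. The transcription factors were measured in nearly every cell. Atf4 had medians of 2008 in labelled dormant, 353 in low-label and 1223 in proliferating cells, and a difference of -0.55 (SE 0.62). With labelled cells the difference of Atf4 was 0.39 (SE 0.54). Xbp1, a factor that is also high in myeloid cells, had medians of 647 in labelled dormant, 927 in low-label and 327 in proliferating cells, and a difference of 0.69 (SE 0.74).

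Most low-label cells held little Asns. Asns (chr6:7675169-7693254), the asparagine synthetase, was 378 to 7115 normalised reads with a median of 2710 in labelled dormant cells, and 358 to 7172 with a median of 1202 in proliferating cells. In 5 of 6 low-label cells it was at most 3.46 normalised reads, and 1098 in the other cell. Its mouse means were 1.65 to 11.90 in dormant and 9.24 to 12.50 in proliferating cells, and the difference of -3.21 (SE 1.29, limma unadjusted p = 0.022, adjusted p = 0.456) was 0.06 (SE 0.64, adjusted p = 0.9999) without the low-label cells. The low-label cells with these values had Lyz2 of 52146 to 188632 normalised reads.

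Trib3, a pseudokinase that restrains Atf4 and Akt, and Chac1, an enzyme that breaks down glutathione, were near 0 in some cells of each state and high in others. Trib3 had a median of 1050 (0 to 2419) in labelled dormant cells and of 16.5 (0 to 1027) in proliferating cells, and was above 0 in 18 of 22 labelled dormant and 18 of 29 proliferating cells. Chac1 had a median of 470 (0 to 1589) in labelled dormant cells and of 1.19 (0 to 1340) in proliferating cells, and was seen in 16 of 22 labelled dormant and 15 of 29 proliferating cells. The mouse means of the states overlapped, with differences of -0.50 (SE 1.76) for Trib3 and 0.57 (SE 1.80) for Chac1. Ddit3 (CHOP), a factor that promotes cell death under lasting stress, and Nupr1, a small stress-induced chromatin protein, had medians of 863 (Ddit3) and 1408 (Nupr1) in labelled dormant cells, and of 79.3 (Ddit3) and 280 (Nupr1) in proliferating cells. The difference over mice was 0.23 (SE 1.22) for Ddit3 and -0.95 (SE 1.08) for Nupr1 with all cells, and 0.94 (SE 1.49) for Ddit3 and 0.74 (SE 0.91) for Nupr1 with labelled cells, so the sign of Nupr1 turned. For Trib3 and Chac1 the labelled differences were 1.64 (SE 1.88) and 3.04 (SE 1.92), and the sign of Trib3 turned.

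Ppp1r15a (GADD34), which brings the phosphatase that reverses eIF2 alpha phosphorylation, Slc7a11, the cystine importer, and Sesn2, a leucine sensor that restrains mTORC1, had differences of -0.20 (SE 1.11), 1.08 (SE 1.10) and -0.19 (SE 1.10). With labelled cells these were 0.26 (SE 0.92), 0.76 (SE 1.19) and 1.44 (SE 1.10). Ppp1r15a had medians of 585 normalised reads in labelled dormant, 1317 in low-label and 411 in proliferating cells. A single low-label cell of mouse 369 had 15220 normalised reads of Slc7a11, 1212 of Ddit3 and 1776 of Ppp1r15a, beside 3.13 of Asns and 9.40 of Hspa5. In that cell Trib3, Chac1, Sesn2 and Nupr1 were at 0. The same cell had eCFP at 0 and 8 of 11 granulocyte genes above 0, with a summed level of 787422 normalised reads. Sesn2 was above 0 in 15 of 22 labelled dormant, 1 of 6 low-label and 15 of 29 proliferating cells.

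**Figure D2:**
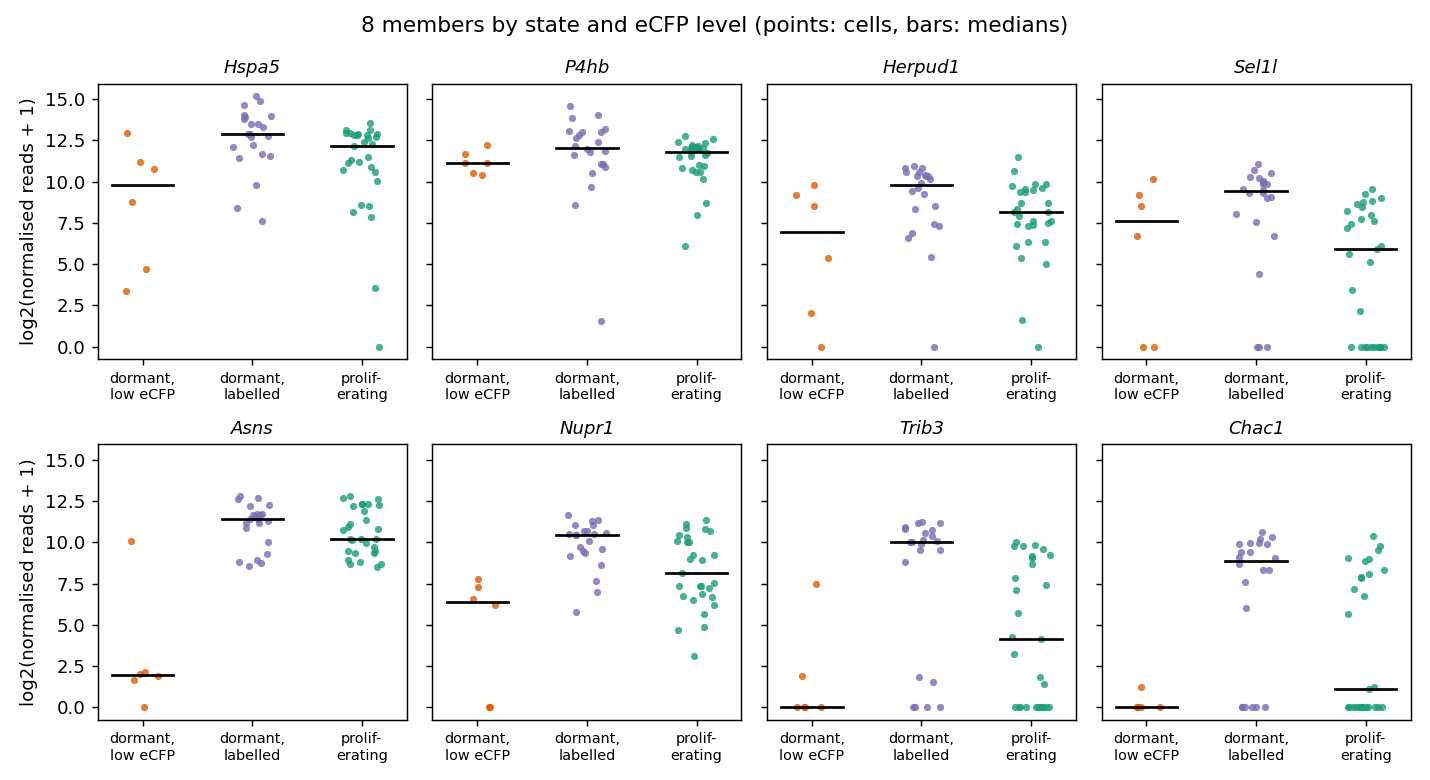
Points are cells, with log2(normalised reads + 1) on the vertical axis, for low-label dormant, labelled dormant and proliferating cells from left to right, and bars are medians. Asns sits at or near 0 in 5 of 6 low-label cells, and Trib3 and Chac1 run from 0 to at least 1027 normalised reads in both labelled dormant and proliferating cells.

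Leaving out the low-label cells gave more members a positive difference, with no call. With 4 dormant and 6 proliferating mouse means and 11595 genes, limma called 0% of genes and no member. The lowest adjusted p of any gene was 0.9999. Unadjusted p was under 0.05 for 1.45% of genes higher and 0.509% of genes lower in dormant cells, and Sel1l was the only member among them (difference 3.57, SE 1.37, p = 0.017). Of the 22 labelled dormant cells, 6 still had at least 10 of 18 pan-leukocyte genes above 0. In the fit without cells with at least 10 such genes, 0 of 32 members had unadjusted p under 0.05, so Sel1l did not either. Differences were above 0 for 26 of 32 members and for 54.5% of all genes, with medians of 0.45 and 0.09. By group, the median difference was 0.19 for folding genes, 0.81 for degradation genes, 0.39 for sensors and factors and 0.85 for Atf4 targets, against -0.01, 0.17, -0.55 and -0.19 with all cells. After Sel1l and Chac1 the largest differences were 2.07 for Hyou1 (SE 1.37), 1.64 for Trib3 and 1.60 for Hspa5 (SE 0.97), none past the threshold. In the same cells edgeR called 0% and DESeq2 0.121% of genes (14), again with no member.

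**Figure D3:**
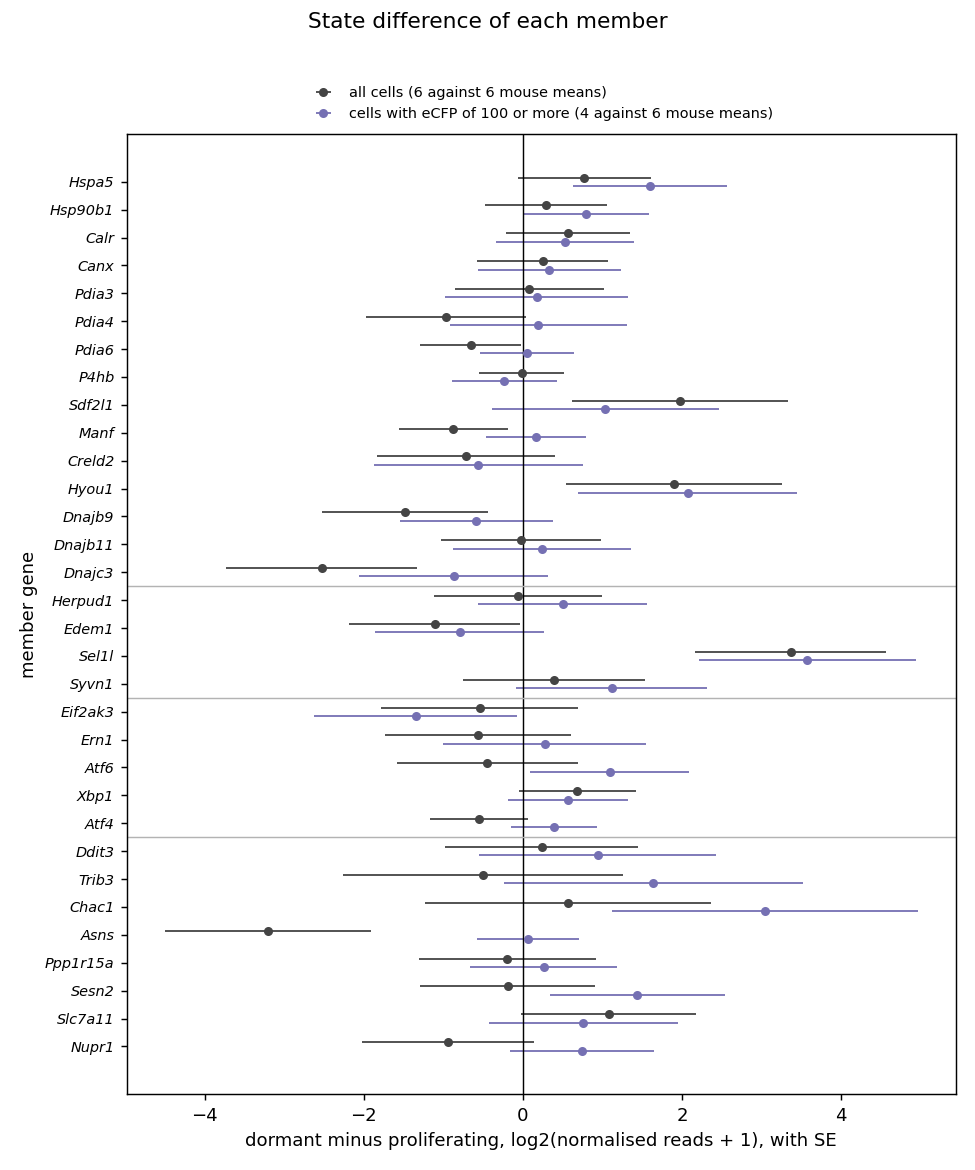
Points are differences, dormant minus proliferating, in the mean log2(normalised reads + 1) over mice, with their SE, for all cells and for cells with eCFP of 100 or more. Asns moves from -3.21 to 0.06 when low-label cells are left out, and Sel1l is 3.37 with all cells and 3.57 without low-label cells.

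Within the 4 mice that gave both states, with the mouse as a block and 11565 genes, limma again called 0% of genes and no member (smallest adjusted p of a member 0.536). Unadjusted p was under 0.05 for 1.03% of genes higher in dormant cells and 8.21% lower, and the members among them were again Sel1l (2.71, SE 1.04), Dnajc3 (-2.87, SE 1.04) and Asns (-2.07, SE 0.71). Differences were above 0 for 11 of 32 members and for 23.5% of all genes, with medians of -0.33 and -0.72. With only labelled cells 3 mice remained, since both dormant cells of mouse 360 are low-label cells, and limma called 0% of 11393 genes (smallest adjusted p 0.9988). Differences were then above 0 for 21 of 32 members and for 44.1% of all genes, with medians of 0.17 and -0.11. Unadjusted p was 0.040 for Sel1l (2.44, SE 1.08), 0.051 for Dnajc3 (-1.998, SE 0.94) and 0.197 for Asns (-0.56, SE 0.42), beside 1.13% of genes higher and 2.05% lower in dormant cells at p under 0.05. The mice did not move together. In mouse 1185, with 11 dormant and 4 proliferating cells, all labelled, Hspa5 had a median of 14092 in dormant and 4742 in proliferating cells, P4hb had 8119 in dormant and 3186 in proliferating cells, and Pdia4 had 2260 in dormant and 320 in proliferating cells. In mouse 369 the same 3 genes had medians of 1539, 1283 and 405 in the 4 labelled dormant cells and of 2592, 2926 and 600 in the 13 proliferating cells. Those 4 dormant cells and 8 of the proliferating cells had more than 37 spike-in features above 0, and in these 8 cells the medians were 1743 for Hspa5, 1660 for P4hb and 164 for Pdia4, so Pdia4 was not lower in dormant cells there. The mean of Slc7a11 differed by 0.03 in mouse 360, 0.58 in mouse 369, 3.72 in mouse 452 and 0.21 in mouse 1185 with all cells, and by -0.95 in mouse 369 with labelled cells. In mouse 452 all 3 dormant cells lay above all 6 proliferating cells in Ddit3 (1436 to 1607 in dormant, against 46.6 to 1390 in proliferating cells) and Chac1 (537 to 1306 in dormant, against 0 to 506 in proliferating cells). In mouse 1185 Chac1 had a median of 321 in dormant and 633 in proliferating cells, and Asns had 3110 in dormant and 5857 in proliferating cells. With 1 mouse behind each of these values there is no replicate and no test.

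Much of the spread of several Atf4 targets lay between mice. Of the spread of log2(normalised reads + 1) among the 51 cells with eCFP of 100 or more, the share lying between the 7 mice was 70.2% for Nupr1, 67.8% for Ddit3, 58.3% for Asns, 54.8% for Trib3 and 43.5% for Chac1, and the share lying between the states was 15.7%, 14.8%, 2.12%, 12.5% and 10.3%. Over 9207 genes above 0 in at least 20 cells, the median share between mice was 17.5% and the 90th percentile 35.0%. Manf (62.3%), Atf4 (43.6%), Herpud1 (38.1%) and Creld2 (35.6%) also lay above that percentile, so 9 of the 31 members with enough cells did. The share was 29.7% for Hspa5, 21.5% for Hsp90b1 and 16.2% for Canx. Ppp1r15a (9.46%), Sesn2 (5.82%) and Slc7a11 (3.49%) were below the median. For the share between the states, the median over the 9207 genes was 1.20% and the 90th percentile 7.08%. Nupr1, Ddit3, Trib3 and Chac1 lay above that percentile too. So did Manf (16.6%), Sel1l (16.1%), Xbp1 (14.4%), Hyou1 (12.2%) and Hspa5 (9.38%). Some mice gave labelled cells of 1 state only, so the shares overlap, and 7 mice divide the cells more finely than the states do. These shares describe 1 to 17 cells per mouse and are not a test, and mouse, day of harvest and library batch cannot be told apart.

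Cell by cell, Chac1 was at 0 in all 4 labelled dormant cells and in 6 of 13 proliferating cells of mouse 369, and in all 3 proliferating cells of mouse 360. In mouse 452 all 3 dormant cells and 3 of 6 proliferating cells had reads, in mouse 1184 all 4 labelled dormant cells, and in mouse 1185 9 of 11 dormant cells and all 4 proliferating cells. Asns was above 0 in every labelled cell. Its medians in labelled dormant cells were 561 in mouse 369, 3418 in mouse 452, 2982 in mouse 1184 and 3110 in mouse 1185. In proliferating cells they were 2973 in mouse 268, 2216 in mouse 288, 653 in mouse 360, 836 in mouse 369, 4451 in mouse 452 and 5857 in mouse 1185. In both states mouse 369 was lower than mice 452 and 1185. Mouse 369 gave 13 of the 29 proliferating cells and mouse 1185 gave 11 of the 22 labelled dormant cells.

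**Figure D4:**
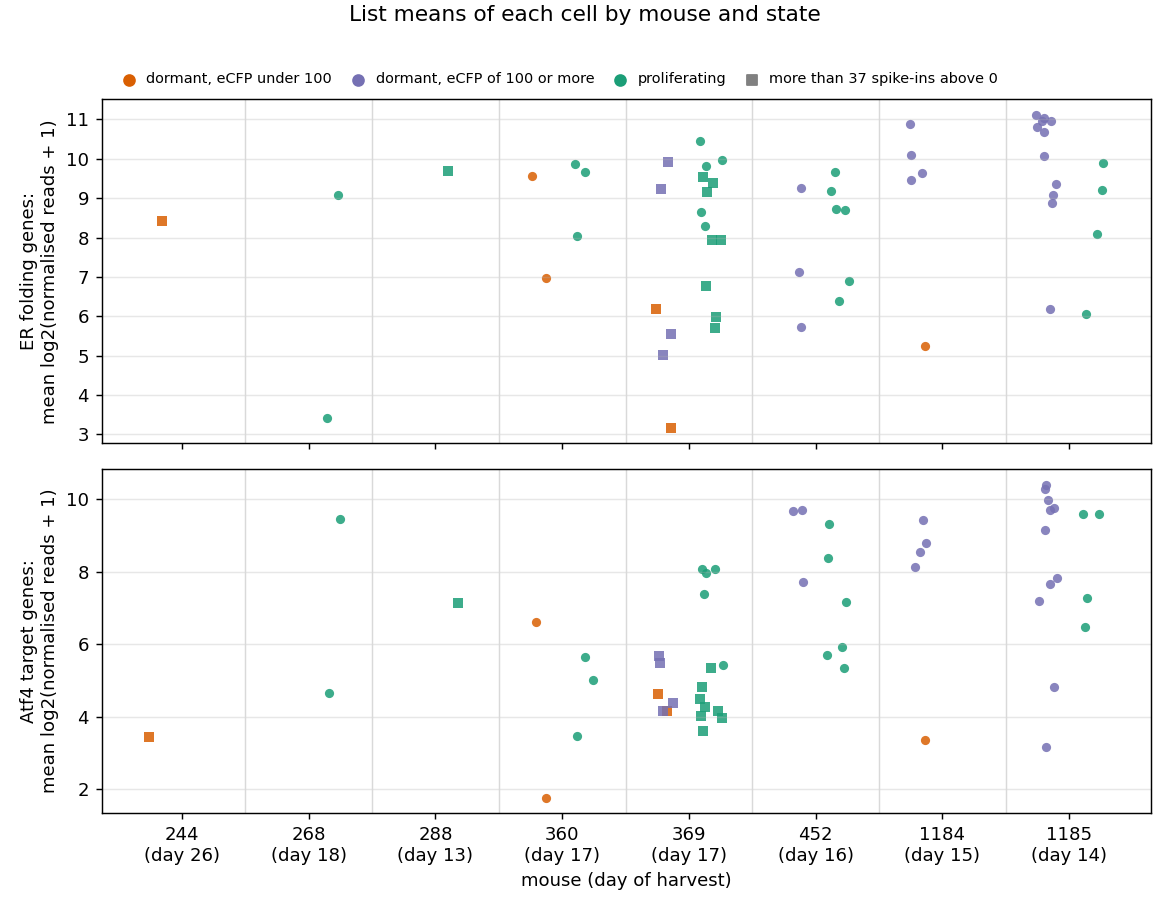
Points are cells, and the vertical axes give the mean log2(normalised reads + 1) over the 15 folding genes (upper) and the 8 Atf4 targets (lower), by mouse, with dormant cells left of proliferating cells. Atf4 target means of labelled cells reach 8.07 in mouse 369, 5.66 in mouse 360 and 10.39 in mouse 1185. Squares mark cells with more than 37 spike-ins above 0.

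A technical measure moved with part of this pattern. Cells had either 18 to 34 or 40 to 48 spike-in features above 0, and 13 labelled cells had more than 37, 12 of them from mouse 369. In mouse 369 the mean log2 level of the 8 Atf4 targets was 4.16 to 5.68 in the 4 labelled dormant cells, which had 40 to 44 spike-ins. It was 3.62 to 5.35 in the 8 proliferating cells with 40 to 45 spike-ins, and 5.43 to 8.07 in the 5 proliferating cells with 18 to 25. Trib3 and Chac1 were both above 0 in 0 of 4, 1 of 8 and 4 of 5 of these cells. In mouse 360, whose 3 proliferating cells had 26 to 32 spike-ins, the level was 3.47 to 5.66 and no cell had both genes above 0. The labelled cell with more than 37 spike-ins from outside mouse 369 was a proliferating cell of mouse 288, with 48. Its level was 7.12, above those of the cells of mouse 369 with 40 or more, with Trib3 at 1027 normalised reads and Chac1 at 0. The part of library preparation in the level of Atf4 targets was not tested.

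Over the 51 labelled cells the folding genes moved together more closely than the Atf4 targets. Spearman's correlation was above 0 in 105 of 105 pairs of folding genes, with a median of 0.60 and the highest at 0.80 (Hspa5 with Hsp90b1). Among 28 pairs of Atf4 targets the median was 0.34, with 0.82 for Ddit3 with Nupr1, 0.80 for Ddit3 with Trib3, 0.78 for Trib3 with Chac1 and a lowest value of 0.07. Across the groups the median of 120 pairs was 0.31, and over all pairs of genes above 0 in at least 20 of these cells it was 0.12. The transcript of Atf4 followed Asns at 0.76 and Trib3 at 0.69. Cells share their library and depth, so these are descriptions. The mean level of the folding genes had a correlation of 0.52 with the number of rows above 0, and that of the Atf4 targets 0.15. With the reads of a cell these were 0.36 for the folding genes and 0.45 for the Atf4 targets. With the number of spike-in features above 0 they were -0.08 for the folding genes and -0.33 for the Atf4 targets.

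The mean levels of the folding genes and Atf4 targets had a correlation of 0.58 over the 51 labelled cells, and of 0.49 in the 11 dormant cells of mouse 1185 and 0.69 in the 13 proliferating cells of mouse 369. Single cells stood apart from it. A dormant cell of mouse 1185 had 9722 normalised reads of Hsp90b1 and 3718 of P4hb beside 0 of Chac1, 2.54 of Trib3 and 378 of Asns. In another dormant cell of that mouse Hspa5 was 891, Hsp90b1 376 and Pdia6 17.8, beside 947 of Trib3, 7115 of Asns and 2546 of Nupr1. All 3 proliferating cells of mouse 360 likewise had folding means of 8.03 to 9.87 with Atf4 target means of 3.47 to 5.66.

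**Figure D5:**
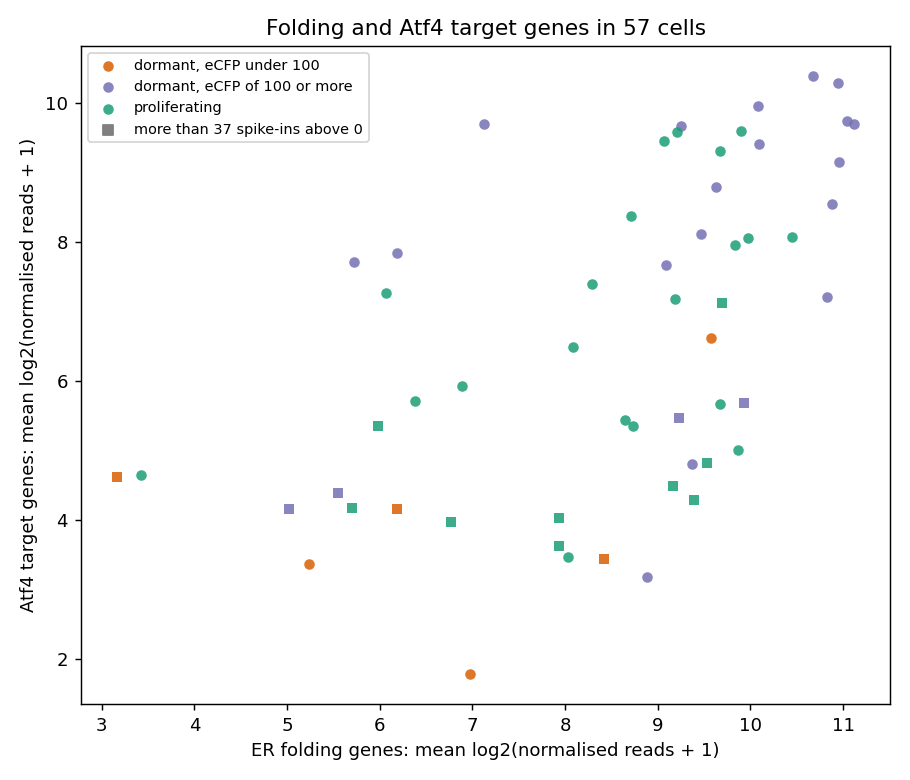
Each point is a cell, with the mean log2(normalised reads + 1) of the 15 folding genes on the horizontal axis and of the 8 Atf4 targets on the vertical axis, coloured by state and eCFP level. Cells at the lower right have folding means above 8.5 with Atf4 target means under 6, and low-label cells lie in the lower part of the plot.

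The eCFP transgene itself had a positive correlation with both groups over the labelled cells. Its Spearman's correlation was 0.39 with the mean level of the folding genes and 0.49 with that of the Atf4 targets, and for Luc2 these were 0.36 and 0.40 (n = 51 cells). Among single members it was highest for Sesn2 (0.54), P4hb (0.52), Chac1 (0.51) and Syvn1 (0.49) and lowest for Dnajb9 (-0.08), Ern1 (0.01) and Slc7a11 (0.05). These correlations are across cells that share mice and depth.

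The genes whose pattern over all 57 cells was most like the mean of the folding genes were, of 9176 genes that are no members, Stt3a (Spearman's correlation 0.85), Atp6ap1 (0.79), Calu (0.78), Surf4 (0.77), Itgb1 (0.77), Srpr (0.77), Abcb6 (0.77) and Slc38a2 (0.76). Stt3a is the catalytic subunit of an oligosaccharyltransferase, Srpr the receptor of the signal recognition particle, and Surf4 an ER export receptor. Those most like the Atf4 targets were Nars (0.83), Htra1 (0.80), Steap1 (0.80), Sars (0.79), Sqstm1 (0.79), Ghitm (0.78), Aldh1l2 (0.78) and Sparc (0.76). Nars and Sars are cytosolic aminoacyl-tRNA synthetases, Sqstm1 the autophagy receptor p62 and Aldh1l2 a mitochondrial folate enzyme. Nars, Sars and Sqstm1 stood on the list of other amino acid response genes. Over the 51 labelled cells Gpc1, Chpf and Selenon replaced Surf4, Itgb1 and Slc38a2 among the 8 genes most like the folding genes. Cyb5r1 and Leprotl1 replaced Sars and Sparc among the 8 most like the Atf4 targets.

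Of 3 lists of other genes, none held a gene called between the states by limma in all mice. The lists of ER genes and of amino acid response genes give some genes under an older and a newer symbol. An untested symbol is therefore not always an absent gene. In the list of other ER entry, folding and quality control genes 44 of 49 symbols were tested. Of these, 1 was higher and 1 lower with limma unadjusted p under 0.05, and the median difference was -0.73, or 0.06 with labelled cells. The smallest p were those of Stt3b, a second oligosaccharyltransferase subunit (-2.27, SE 0.95), Os9, a lectin of degradation (2.81, SE 1.28), Ostc (-1.24, SE 0.78) and Sec62 (-1.48, SE 0.95). In the list of other amino acid and stress response genes 33 of 42 symbols were tested, 0 were higher and 5 lower, with a median of -0.96. The smallest p were those of Eprs (-2.87, SE 0.94), Psat1 (-3.50, SE 1.24), Mthfd2 (-3.12, SE 1.20) and Shmt2 (-2.68, SE 1.08), which charge tRNA or make serine and one-carbon units. With only labelled cells 0 were higher and 0 lower, the median was 0.32, and these 4 differences were -0.86 (Eprs), 0.05 (Psat1), -0.65 (Mthfd2) and -0.33 (Shmt2). In the list of eIF2 kinases and core genes all 16 were tested, 0 were higher and 2 lower, with a median of -0.51, or 0.59 with labelled cells. Eif2s1, the eIF2 alpha subunit itself, had 9.09 ± 1.08 in dormant and 11.21 ± 0.49 in proliferating cells (log2 scale, SD, n = 6 mice each), a difference of -2.12 (SE 0.56, limma adjusted p = 0.437), and -1.29 with only labelled cells. Traf2 (-2.53, SE 1.23), Eif2b3 (-2.05, SE 1.33) and Eif2b2 (-1.86, SE 1.22) followed.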

How the data were processed

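Per the labels' protocols, cDNA of single cells was made with SMARTer chemistry, with ERCC spike-ins added, and tagmented with Nextera XT, and libraries were made in batches of a single state each. STAR, RSEM and the builds GRCm38 and mm10 are named, per the submitters' processing notes. The authors normalised the values with BASiCS, per the series text, and deposited them as a signal, normalised reads per gene and cell. Within each cell 100% of gene values were whole multiples of a step, within 0.01 reads, so whole reads could be recovered. Spike-ins (118 rows) were left out.

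The mouse was the replicate. Means of log2(value + 1) per mouse and state were tested with limma (3.58.1, trend and robust), dormant minus proliferating, and adjusted by Benjamini-Hochberg, with a threshold of 0.05. A gene at 0 in a cell counts as 0 in its mean. A cell at 0 beside cells with many reads thus moves a mean of logs by several units. Differences of genes detected in part of the cells can be large for that reason. Between values near 1 the pseudocount of 1 understates changes. edgeR (4.0.16) and DESeq2 (1.42.0) on recovered reads were alternatives. Means of mice 244 (dormant) and 288 (proliferating) rest on 1 cell. Cells of both states of a mouse share that mouse, per the labels, and the correlations of paired deviations were -0.01, 0.36, 0.09 and 0.01 for mice 360, 369, 452 and 1185. No 2 cells correlated above 0.891, and none was taken for a duplicate.

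The members, lists, tests and the eCFP limit of 100 were chosen with earlier results of these data known. All members are named, with up to 4 genes of each other list by smallest p in the fit over all mice and the 8 genes most like each of 2 groups. The scripts were tested on simulated data. Intervals on cell counts cover counting error only. Gene positions and exon lengths came from GENCODE M21 and promoters from RefSeq, both on GRCm38. R 4.3.3 and Python 3.11.15 were used.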

Additional observations from a re-analysis of the deposited data

Results flagged for a closer look

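Within each state the 6 mouse means of every member were checked for a mouse far from the others, 64 sets in all, of which chance flags about 1 in 20. Of the 8 found, 5 concern the proliferating cells of mouse 268, whose mean log2(normalised reads + 1) was the lowest of the 6 mice: 6.48 for Hspa5 (next mouse 10.71), 5.48 for Calr (9.91), 5.60 for Canx (9.36), 5.99 for Pdia3 (10.24) and 4.41 for Dnajc3 (7.54). Mouse 268 gave 2 cells, and in 1 of them all 5 genes were at 0 while Pdia6 had 3728 normalised reads and Xbp1 1639. That cell had 2399 rows above 0, the fewest of the 57 cells, and a pan-leukocyte sum of 10059 normalised reads, the highest among proliferating cells. Their part in these values was not tested. Among dormant means, Creld2 was lowest in mouse 452 at 2.62 (next mouse 6.79), with 2 of its 3 cells at 0. The single proliferating cell of mouse 288 gave the other pair, Sel1l at 0 (next mouse 3.99) and Ern1 highest at 7.35 (next mouse 3.41).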

How the results depend on the processing

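No member was called under any of the alternatives run over all mice or within mice. The count of all genes called over all mice, 0 by limma, was 18 with edgeR, 302 with DESeq2 and 14 with DESeq2 without cells with eCFP under 100. Within mice it was 1 without cells with at least 5 of 18 leukocyte genes and 0 otherwise, also with no replicate block. Over all mice, the unadjusted limma p of Sel1l was not under 0.05 without cells with at least 5 or at least 10 leukocyte genes. Within mice it was not under 0.05 without mouse 452 or without mouse 1185. With log2 of the mean value over the cells of a mouse, 7 of 32 members changed sign over all mice. Slc7a11 was then the only member with limma unadjusted p under 0.05. Why these settings differ was not tested. Without cells with at least 5 of 18 leukocyte genes, Hyou1 was the only member with p under 0.05 over all mice. Within mice Dnajc3 was the only one. No dormant cell of mice 360 and 452 passed that limit. The fit within mice, with its 1 called gene, therefore rested on mice 369 and 1185 alone. The replicate block by mouse changed no call. Restricting the fit to the 4 mice with both states changed the sign of 10 of 32 members relative to all mice. Dropping the block in those mice cannot change a difference, since each mouse gives 1 mean per state, and it changed no sign. Over all mice the median difference of the sensors and factors, -0.55, was 0.60 without cells with at least 10 leukocyte genes, 1.07 without cells with more than 37 spike-ins and 0.70 without low-label cells and mouse 369, and that of the degradation genes, 0.17, was 1.497 in the last of these. Leaving out each mouse gave 0 calls in both comparisons, with medians over all mice of -0.48 to 0.36 for folding genes, -0.19 to 0.54 for degradation genes, -0.80 to 0.15 for sensors and factors and -0.59 to 0.46 for Atf4 targets. Within mice these were -1.08 to -0.16, -1.30 to 0.06, -0.17 to 0.69 and -0.59 to 0.86. Apart from the folding genes within mice, each of these medians changed sign with 1 mouse left out. The difference in Atf4 target level between proliferating cells of mouse 1185 and those of mouse 369, 2.72 on the log2 scale, was 0.85 without cells with many spike-ins, and the cause was not tested. Other scores moved by less than the spread between cells. By median of ratios scaling, 4 of 32 members changed sign, and 13 did when low-label cells were left out. Thinning every cell to 945351 reads left all 64 counts of cells above 0 within their exact 95% intervals. The limits of 10 leukocyte genes and 37 spike-ins, the fits without both low-label cells and mouse 369, edgeR and DESeq2 on labelled cells and the comparison of mice 1185 and 369 were chosen after seeing the data. Means of few cells limit every comparison.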
